A study of Mus musculus with 4 samples.

Results

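Lyz1, Defa17, Defa22, Defa24, Ang4, Ang5, Itln1 and Mmp7 encode proteins that Paneth cells of the mouse small intestine secrete, or use to activate what they secrete, against microbes. These 8 genes were chosen by name, and all 8 were among the 29161 genes of a table of counts per well. The table came from a study of endocrine differentiation in enteroids, which are epithelial cultures grown from intestinal crypts. The questions followed here were which wells held these genes together, how much of each gene's counts lay in few wells, and whether the same wells held the goblet cell genes Muc2 and Agr2 or the endocrine progenitor gene Neurog3.

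All enteroids came from female CD1 mice carrying the Neurog3eYFP/+ reporter allele, so no group lacks it. Living eYFP+ cells (DAPI was the stain for dead ones) were sorted singly, 92 per plate, into 4 plates of the BD Precise WTA kit, which reads polyA RNA. Plate 1 is duodenum replicate 1 (39 weeks of age), plates 2 and 3 are duodenum replicates 2 and 3 (12 weeks), and plate 4 is jejunum replicate 1 (12 weeks). The reporter sits in the Neurog3 locus, and a reporter protein can outlast the transcript, so an eYFP+ cell need not hold Neurog3 RNA. Cells without eYFP were not sampled, and the shares below are shares of sorted wells. The labels do not say whether the plates came from separate mice. The p-values below therefore measure the spread between these plates, which may be technical.

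The table held 290 wells (72, 83, 72 and 63 in plates 1 to 4). Plate totals ran from 23893272 counts (plate 1) to 46490618 (plate 4), and the median well held 321533.5 counts in plate 1 and 678124 in plate 4. Levels are given as CPM, a gene's counts per 1000000 counts of a well, class or plate.

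Paneth cells sit at the base of the crypt and fill their granules with lysozyme, alpha-defensins and other microbicidal proteins. Goblet cells make the mucus and share with Paneth and endocrine cells a descent from secretory progenitors. Lyz1 encodes a lysozyme that cuts bacterial cell walls. The alpha-defensins (Defa genes) are small cationic peptides that disrupt bacterial membranes and are made as inactive precursors. Mmp7, matrilysin, is the protease that cuts those precursors in mouse Paneth cells. Ang4 and Ang5 belong to the angiogenin family of secreted ribonucleases, of which Ang4 is a known microbicidal product of Paneth cells. Itln1 encodes intelectin 1, a lectin that binds microbial sugars and is made by Paneth and goblet cells.

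The defensin genes are near copies of each other, which limits how far their counts can be told apart. The last 90 coding bases before the stop codon of the 3 defensin members, from the GENCODE M21 transcripts of GRCm38, show this. They are given 5′ to 3′, with capitals at the 37 positions where the 3 are not all alike.
Defa17: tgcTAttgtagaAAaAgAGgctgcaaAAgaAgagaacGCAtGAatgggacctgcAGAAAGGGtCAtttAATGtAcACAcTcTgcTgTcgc
Defa24: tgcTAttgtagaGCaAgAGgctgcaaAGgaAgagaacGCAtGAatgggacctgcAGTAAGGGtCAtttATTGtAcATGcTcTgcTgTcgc
Defa22: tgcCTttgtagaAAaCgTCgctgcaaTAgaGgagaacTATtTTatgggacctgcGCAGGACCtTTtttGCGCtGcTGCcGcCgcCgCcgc
In this stretch Defa17 and Defa24 differed at 7 positions, Defa17 and Defa22 at 33, and Defa22 and Defa24 at 37. Over the whole coding sequence (279 bases each), Defa17 was 95.7% identical to Defa24 and 100% identical to Defa3. Defa24 was 98.6% identical to Defa30, and Defa22 was 99.3% identical to Defa21. Counts of a single defensin gene are therefore uncertain. How the authors' counting treated reads that match several copies is not stated in the sources used here. Untranslated parts of the transcripts were not compared. Lyz1 was 95.05% identical to Lyz2, Ang4 88.0% to Ang5 and Ang5 89.6% to Ang6.

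The 3 defensin members lie on chromosome 8 of GRCm38, all protein coding and on the plus strand: Defa22 from 21162277 to 21163249, Defa17 from 21655780 to 21656735 and Defa24 from 21734494 to 21735471. Ang5 (43957069 to 43963072, plus strand) and Ang4 (51763878 to 51773590, minus strand) lie on chromosome 14. Lyz1 lies on chromosome 10 (117287797 to 117292868, minus strand), Itln1 on chromosome 1 (171518122 to 171535294, minus strand) and Mmp7 on chromosome 9 (7692090 to 7699585, plus strand). The counts are per gene and do not say which exon a read came from.

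The 120 bases before the annotated starts of Ang4 and Ang5 are shown side by side (RefSeq, GRCm38.p6). They are chr14:51773591-51773710 on the minus strand for Ang4 and chr14:43956949-43957068 on the plus strand for Ang5. Capitals mark the bases that were not identical in a global alignment.
Ang4: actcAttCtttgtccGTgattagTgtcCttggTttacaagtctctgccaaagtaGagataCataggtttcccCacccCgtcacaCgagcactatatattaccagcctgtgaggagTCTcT
Ang5: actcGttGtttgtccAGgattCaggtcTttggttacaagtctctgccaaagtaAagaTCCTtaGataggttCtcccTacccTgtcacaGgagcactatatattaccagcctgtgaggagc
The windows were identical at 104 of 126 aligned columns (82.5%), against 51.1% for Ang4 aligned with Lyz1 and 52.6% for Ang5 aligned with Itln1. Lyz1 and Itln1 are of other families, and no other angiogenin promoter was aligned. The coding sequences of Ang4 and Ang5 are themselves 88.0% identical. Whether promoter likeness or shared reads bear on the wells in which both were high was not tested. RefSeq promoters matched 6 of the 8 members by symbol, without Defa17 and Defa24. Mmp7 had 2 starts there, at 7692090, where the annotated gene begins, and at 7692341, which was set aside. In the 250 bases before the start, on either strand, TATAAA was found for Defa22 and Mmp7 and in 12.4% of 32851 promoters. CTTTGAT was found for Defa22 and in 3.2% of promoters, and CAGCTG for 0 members and in 13.0%. The 3 motifs do not overlap in letters, and a match is a description of these windows only.

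Low counts of Defa24 and Lyz1 were spread over most wells, so a rule was needed for a raised level. Where these low counts came from was not tested. Defa24 had at least 1 count in all 290 wells, with a median of 7, 6, 14 and 18 counts per well in plates 1 to 4. Wells with high Tph1, the gene for the serotonin-making enzyme of enterochromaffin cells, served as a comparison. That they lack Paneth products was assumed and not tested. Of the 93 wells with high Tph1 (median depth 478112 counts), 100% had a Defa24 count and 87.1% a Lyz1 count. In the other 197 wells (median depth 388661) the shares were 100% and 89.3%. A gene was therefore called high in a well only with at least 5 counts, at least 0.5% of its plate's counts and at least 10 times its plate's median CPM. By that rule Defa24 was high in 2 of the 93 wells with high Tph1 (2.15%) and in 33 of the other 197 (16.8%), and Lyz1 in 7 (7.53%) and 53 (26.9%). Mmp7 did not follow that assumption, as it was high in 26 (28.0%) and 42 (21.3%). The rule is strict. By the share limit alone, 13 wells for Ang4, 11 for Defa24, 10 for Itln1 and 10 for Lyz1 missed it. They held up to 111, 359, 355 and 180 counts of the gene, in that order. Those wells were above the floor and are not counted as high.

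**Figure D1:**
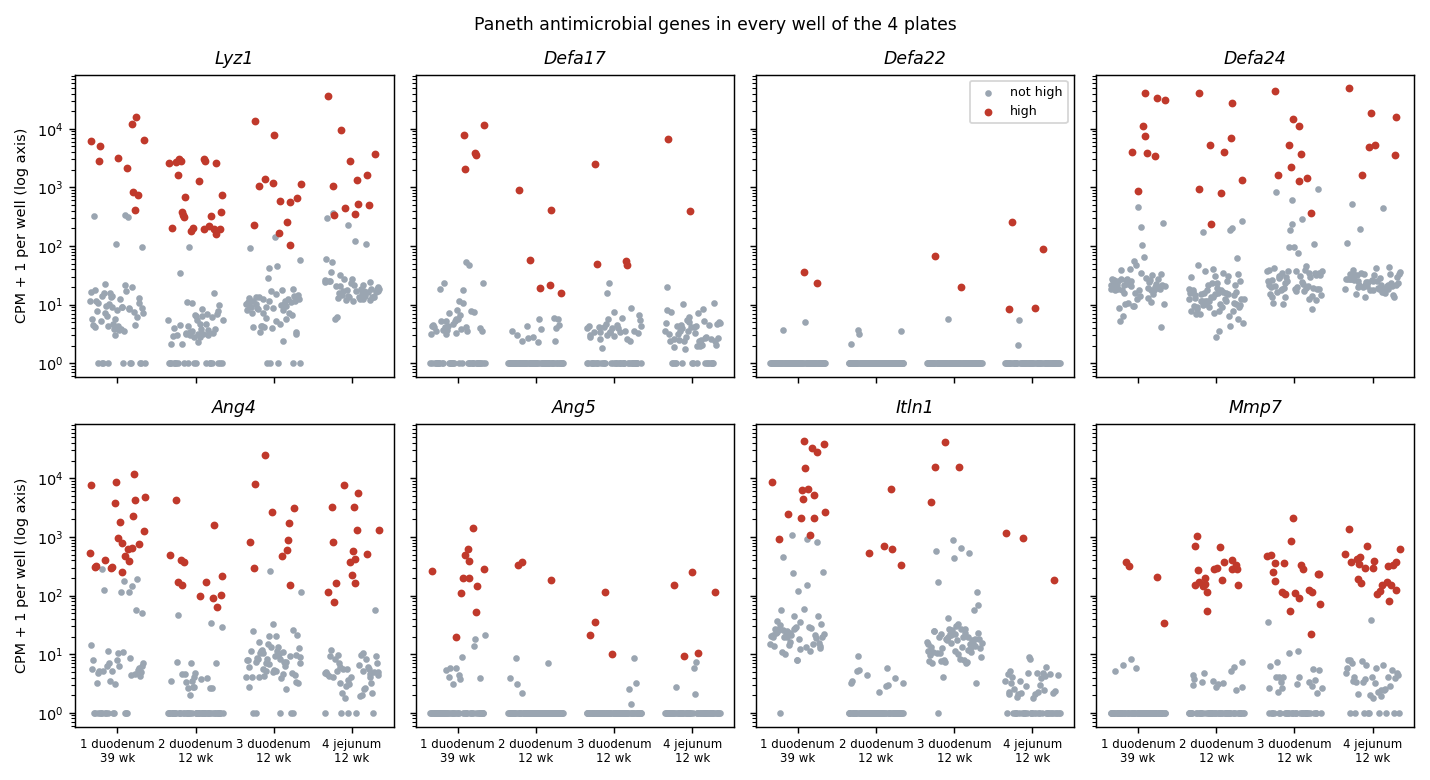
CPM + 1 of each gene in every well (log axis), by plate, with wells where the gene is high by the rule above in red and the others in grey. Defa24 shows a floor in all 290 wells with 7 to 10 wells per plate far above it, Defa22 is high in 8 wells in all, and Mmp7 is high in 4 wells of plate 1 against 20 to 23 in plates 2 to 4.

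Lyz1 was high in 60 wells: 11, 24, 13 and 12 in plates 1 to 4. Its level over whole plates was 929, 308, 683 and 909 CPM, so the jejunum plate lay within the range of the duodenum plates. The highest well held 43.1%, 13.0%, 66.3% and 69.1% of the plate's Lyz1 counts. Over all genes with at least 100 counts in a plate, the median share of the highest well was 25.5%, 21.9%, 24.4% and 24.0%. Lyz1 was thus spread over many wells at moderate levels in plate 2, where the highest well reached 3111 CPM. In plates 3 and 4 single wells carried most of it, at 13847 CPM (well B04 of plate 3) and 35988 CPM (well C02 of plate 4).

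Defa24 was the most counted defensin and was high in 35 wells: 9, 9, 10 and 7. Its plate levels were 2466, 998, 1922 and 1633 CPM. The highest well held 34.3%, 51.5%, 75.4% and 52.5% of the counts, and the 5 highest wells held between 90.8% and 94.8% in every plate. Over all genes with at least 100 counts in a plate, the median share of the 5 highest wells was 78.8%, 68.7%, 74.1% and 75.7%. Its peak was alike in the 4 plates, at 40419, 41528, 44333 and 49118 CPM.

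Defa17 was high in 17 wells (5, 6, 4 and 2), and 16 of these were also high for Defa24. Plate levels were 503, 16.6, 86.8 and 126 CPM. Wells B04 of plate 3 and C02 of plate 4 held 94.8% and 93.5% of their plates' Defa17 counts, whereas in plate 1 the counts were shared by 5 wells with 505 counts or more. Defa22 was counted least, with 29, 6, 91 and 148 counts in plates 1 to 4, and was high in 2, 0, 2 and 4 wells. Of those 8 wells, 6 were also high for Defa24.

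Ang4 was high in 63 wells (23, 13, 11 and 16), with plate levels of 759, 102, 984 and 355 CPM. Ang5 was high in 24 wells (12, 3, 4 and 5), at 64.4, 11.9, 4.40 and 9.25 CPM, and 17 of those 24 wells (70.8%) were among the 63 with Ang4 high. Ang4 was the less concentrated of the pair: 13, 8, 5 and 8 wells were needed to reach 90% of its plate counts, against 9, 3, 3 and 3 for Ang5. The median over all genes with at least 100 counts in a plate was 7, 10, 8 and 8 wells. Both genes thus needed more wells than that median in plate 1. The share of 1 well in plate 3 was large for both, since well C11 held 55.0% of the Ang4 and 54.8% of the Ang5 counts.

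Itln1 was high in 28 wells, 16 of them in plate 1 and 5, 4 and 3 in plates 2 to 4. Its plate levels spanned a wide range, at 3188, 88.3, 1897 and 46.2 CPM. Plates 1 and 3 were high and plates 2 and 4 low, so that 1 duodenum plate was nearer to the jejunum plate than to the other duodenum plates. The highest well reached 42767 CPM in plate 1 and 41950 in plate 3, against 6588 in plate 2 and 1188 in plate 4.

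Mmp7 differed from the others in where it was found. It was high in 68 wells: 4 in plate 1 and 20, 21 and 23 in plates 2 to 4, at plate levels of 13.4, 67.2, 96.3 and 127 CPM. Its highest well held 38.4%, 21.3%, 18.0% and 18.8% of the plate's counts, close to the median over genes in plates 2 to 4. Of the 68 wells, 26 (38.2%) also had Tph1 high, against 32.1% of all wells. In plate 4, 14 of the 27 wells with high Tph1 had Mmp7 high (51.9%) against 9 of the other 36 (25.0%), and the median level was 78.7 against 3.32 CPM. In plates 1, 2 and 3 the shares were 4.76% against 5.88%, 20.0% against 25.9% and 30.0% against 28.8%. Wells in which Mmp7 was the only member high numbered 32, of which 20 had Tph1 high and 1 had Muc2 or Agr2 high. By plate, Tph1 was high in 1 of 2, 2 of 7, 5 of 9 and 12 of 14 of them, so plate 4 gave most. Among the 133 wells with 0 members high, Tph1 was high in 58. The wells with high Tph1 were chosen for this description after values had been seen.

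**Figure D2:**
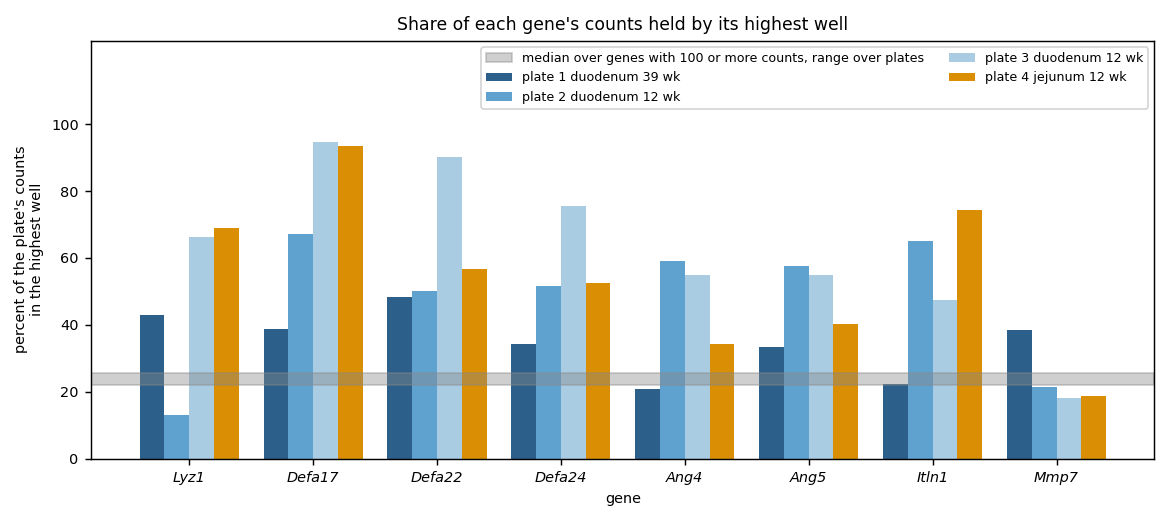
Percent of a plate's counts of each gene that lay in its highest well, by plate; the grey band spans the median of that share over all genes with at least 100 counts in the plate (21.9% to 25.5%). Defa17 in plates 3 and 4 (94.8% and 93.5%) and Defa22 in plate 3 (90.1%) rest on 1 well, while Mmp7 in plates 2 to 4 lies under the band.

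At least 1 of the 8 genes was high in 157 of the 290 wells, with 83 wells high for 1 gene and 39 for 2. Wells with 3 or more members high are called Paneth-high here. They numbered 35 (12.1% of wells, exact 95% interval 8.55 to 16.4, counting error only): 11 of 72 wells of plate 1 (15.3%, 7.88 to 25.7), 8 of 83 of plate 2 (9.64%, 4.25 to 18.1), 8 of 72 of plate 3 (11.1%, 4.92 to 20.7) and 8 of 63 of plate 4 (12.7%, 5.65 to 23.5). These intervals overlap, and the plates were not compared by a test. The limits of the rule are set within each plate, so counts of high wells are not on one scale across plates. For Defa24, a well at 232 CPM was high in plate 2, while a well at 921 CPM was not high in plate 3. The share limit is set on counts and not on CPM, so within a plate a deeper well can pass at a lower CPM. In plate 3 the lowest well with Defa24 high was at 365 CPM, below that well at 921 CPM. The number depends on the rule: 132 wells had at least 5 counts of 3 or more members, 74 had 2 or more members high, and 21 had 4 or more. Median depth was 363461, 483538, 897836.5 and 684628.5 counts in Paneth-high wells and 314185, 431897, 417005 and 678124 in the other wells of plates 1 to 4. In the same order, the median number of genes detected was 3885, 4941.5, 6183.5 and 5830 against 3876, 4691, 4497 and 5910. With every well thinned to 100000 counts, 35 wells passed and 31 of them were the same wells.

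The 35 wells held 89.6% of all Defa24 counts, 98.1% of Defa17, 92.5% of Itln1, 91.1% of Ang5, 76.8% of Lyz1, 59.6% of Ang4, 49.6% of Defa22 and 39.1% of Mmp7. These shares describe the genes that chose the wells and carry no test. The genes did not form a single fixed set. All 8 were high in 1 well, B04 of plate 3, where the members made up 8.48% of 1232968 counts, and 7 in 1 other, G08 of plate 1 (8.27% of 591363). In C02 of plate 4 the members made up 9.33% of 811308 counts, with Lyz1, Defa17, Defa22, Defa24, Ang4 and Mmp7 high and 1 count of Itln1.

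Overlaps varied with the pair. Of the 35 wells with Defa24 high, 17 also had Lyz1 high (4, 4, 5 and 4 by plate), and of the 60 wells with Lyz1 high 28.3% had Defa24 high. Defa24 and Itln1 were high together in 11 wells (5, 3, 2 and 1), which is 31.4% of the first and 39.3% of the second. Ang5 and Itln1 were high together in 13 wells (9, 1, 3 and 0), or 54.2% and 46.4%. Among all 290 wells, Lyz1 was high in 20.7%, Defa24 in 12.1%, Itln1 in 9.66% and Ang5 in 8.28%. Across the 290 wells, on log2(CPM + 10) centred within plates, the largest correlations among members were Defa17 with Defa24 (Pearson r = 0.67), Ang5 with Itln1 (0.46), Defa24 with Itln1 (0.42) and Ang4 with Ang5 (0.42). The wells of a plate share a library and differ in depth, and the first pair shares near-identical sequence, so these values are descriptions. A defensin was high without an angiogenin or Itln1 in 17 wells counted by Defa24. An angiogenin or Itln1 was high without any defensin member in 61 wells.

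**Figure D3:**
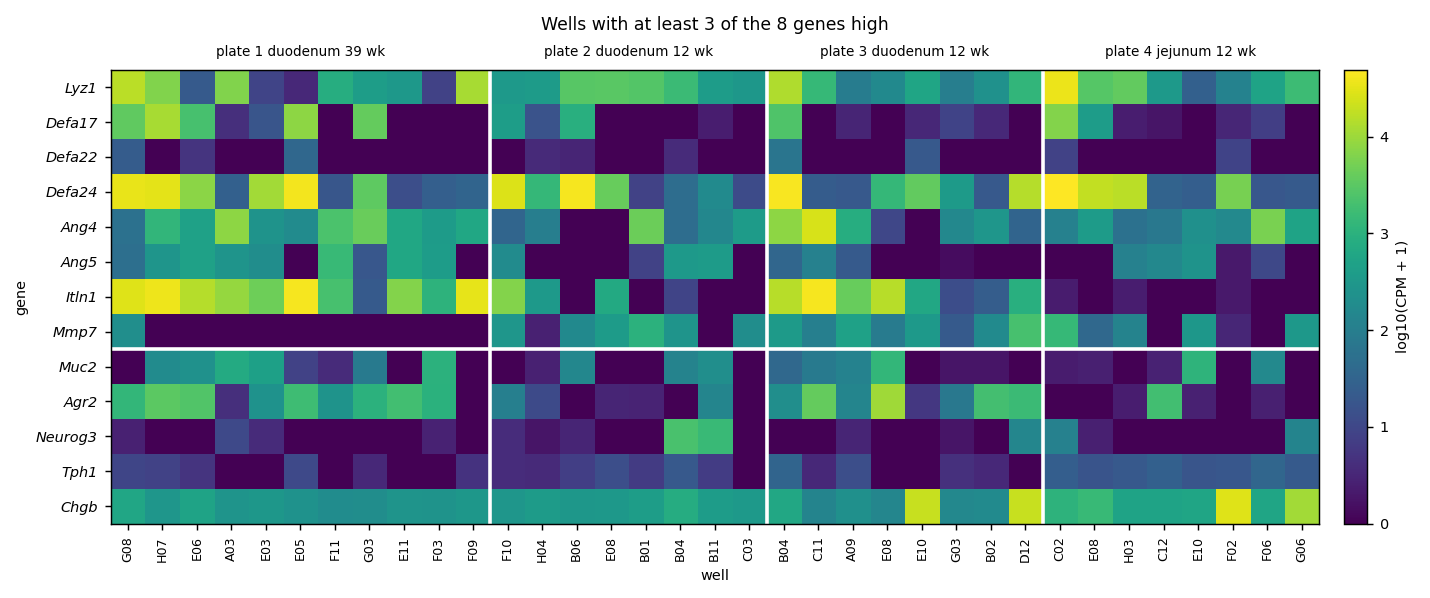
Level (log10 of CPM + 1) of the 8 genes, of Muc2, Agr2, Neurog3, Tph1 and Chgb in the 35 Paneth-high wells, ordered by plate and by the number of members high. The first well of plates 3 and 4 (B04 and C02) holds 75.4% and 52.5% of its plate's Defa24 counts; Mmp7 is at 0 in 10 of the 11 wells of plate 1, and Itln1 is low in all 8 wells of plate 4.

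Muc2 encodes the main gel-forming mucin of goblet cells and Agr2 a protein disulfide isomerase that mucin folding needs. Muc2 was high in 23 wells (9, 6, 6 and 2) and Agr2 in 37 (14, 8, 9 and 6). Of the 35 Paneth-high wells, 15 had Muc2 high (42.9%, against 7.93% of all wells) and 19 had Agr2 high (54.3%, against 12.8%). At least 1 of the pair was high in 24 of the 35. Both were high in 11 wells, called goblet-high here (6, 1, 4 and 0 by plate), and 10 of these 11 were Paneth-high. In plate 4 the count was 0 of 63 wells, which allows a share of up to 4.76%.

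Over all wells, Muc2 or Agr2 was high in 49 of 290 (16.9%), or 23.6%, 15.7%, 15.3% and 12.7% of the wells of plates 1 to 4. The counts below are descriptions, and differences between members were not tested. Muc2 or Agr2 was high in all 13 wells in which Ang5 and Itln1 were both high, 9 of them in plate 1, and in 15 of the 17 wells with Ang4 and Ang5 both high. It was high in 9 of the 17 wells with Defa24 and Lyz1 both high: 3 of 4, 2 of 4, 4 of 5 and 0 of 4 in plates 1 to 4. In plate 4, 0 of the 9 wells with any defensin high had Muc2 or Agr2 high, against 16 of 29 such wells in the duodenum plates. Over all wells the share was 8 of 63 in plate 4 and 41 of 227 (18.1%) in the duodenum plates. That difference between tissues was not tested, as 1 plate stands for jejunum. Of the 23 wells with Muc2 high, 13 had Lyz1 high (56.5%), 13 Ang5 (56.5%), 12 Ang4 (52.2%), 10 Defa24, 10 Itln1 and 10 Mmp7 (43.5% each). In the same order, these genes were high in 20.7%, 8.28%, 21.7%, 12.1%, 9.66% and 23.4% of all 290 wells. At the looser limit of 5 counts, Defa24 reached 91.3% of those 23 wells, but it also reached 82.1% of all wells.

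To test the members against a class they did not define, counts were summed per plate over goblet-high and other wells. Plates 1 and 3 had at least 3 goblet-high wells (6 and 4) and entered the test, which was edgeR's quasi-likelihood test with plates as blocks and p-values adjusted by Benjamini-Hochberg. Each class thus had 2 sums. Defa17 and Defa24 passed it, 2 of 8 members, where 0.0959% of all 12514 genes tested were called higher (12 genes) and 0.0879% lower (11 genes). Of the 8 members, 7 had a log2 difference above 0, with a median of 3.87 for the 8 against -1.12 for all genes tested.

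Defa24 stood at 8446 CPM in goblet-high and 1818 CPM in other wells of plate 1, and at 14625 and 494 CPM in plate 3. The log2 difference was 4.10 ± 0.58 (SE), with an adjusted p of 0.00680 by edgeR. Defa17 stood at 2882 against 246 CPM in plate 1 and at 815 against 4.99 CPM in plate 3, a log2 difference of 5.99 ± 0.90 (adjusted p 0.0104, edgeR). Both calls rest on well B04 of plate 3, which held 54661 of the 55716 Defa24 counts and 3101 of the 3103 Defa17 counts of the goblet-high wells there. Without it, Defa24 was at 409 CPM in goblet-high and 494 CPM in other wells of plate 3. The log2 differences were then 1.497 (Defa24, adjusted p 0.376, edgeR) and 1.40 (Defa17, adjusted p 0.849, edgeR), and neither passed. Over all alternatives the adjusted p ran from 3.31e-52 to 0.376 for Defa24 and from 2.90e-18 to 0.849 for Defa17.

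Itln1 showed the reverse pattern: it did not pass, yet its difference did not depend on that well. It was at 9106 against 2548 CPM in plate 1 and at 18241 against 59.5 CPM in plate 3 (log2 difference 5.60 ± 1.29, adjusted p 0.222, edgeR), and without well B04 the difference was 5.62. Ang5 was at 246 against 44.7 CPM and at 40.4 against 0.354 CPM (5.13 ± 1.57, adjusted p 0.397, edgeR). Ang4 was at 1145 against 718 and at 8126 against 181 CPM (3.63 ± 0.97, adjusted p 0.397, edgeR), close in plate 1 and far apart in plate 3. These differences lean on another single well, C11 of plate 3. Without B04, the goblet-high wells there held 21208 Ang4, 111 Ang5 and 50115 Itln1 counts. Of these, C11 held 20387, 91 and 33967. The test was not run without C11.

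Lyz1 was at 1167 against 903 CPM in plate 1 and at 4832 against 216 CPM in plate 3 (2.98 ± 0.84, adjusted p 0.397, edgeR), and at 1.34 without well B04. Defa22 (3.19 ± 4.56, adjusted p 0.930) and Mmp7 (-0.90 ± 2.39, adjusted p 0.968) had errors larger than their differences by edgeR. Mmp7 was at 0 in the goblet-high wells of plate 1 and at 281 against 75.5 CPM in plate 3. Other settings called more members. DESeq2 also called Itln1 (adjusted p 0.0203) and Ang5 (0.0244), where it called 4.19% of 8874 genes. With wells thinned to 100000 counts, edgeR also called Lyz1 (adjusted p 0.00698), Ang4 (0.00034) and Itln1 (1.36e-10), where 0.656% of genes were called. Without a filter on low counts it called the same 3 in addition, where 0.196% were called, and with classes set at 5 counts only it called Itln1 (0.013), where 0.215% were called. With well B04 of plate 3 left out none of the 7 members tested passed by edgeR.

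Of the 10 other genes called higher in goblet-high wells, 9 were on the goblet or Paneth lists. Of the 19 other goblet genes tested 5 were called higher and 0 lower, and of the 25 other Paneth genes 4 and 0. Among them were Spink4 (log2 difference 4.13), the trefoil factor gene Tff3 (3.22), Fcgbp (2.93), Guca2a and Guca2b, which encode guanylin and uroguanylin (4.97 and 4.29), and the colipase gene Clps (3.28). The chemokine gene Ccl6 was at 444 against 0.557 CPM in plate 1 and at 25.5 against 0 CPM in plate 3. It had 5 or more counts in only 2 wells of the table, and was high in 1 well of each of these plates. Defa35 was called at 11.33 but lay almost wholly in well B04, and stood at 2.12 without it (adjusted p 0.622, edgeR). Of the 21 endocrine genes tested 8 were called lower and 0 higher, among them Chgb (-5.78), Tph1 (-5.78), Tac1 (-5.75) and Cpe (-5.42). Without well B04, 8 genes were called in place of 23: Guca2a, Tff3, Clps, Mptx1, Spink4 and Fcgbp higher, and Chgb and Tac1 lower.

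**Figure D4:**
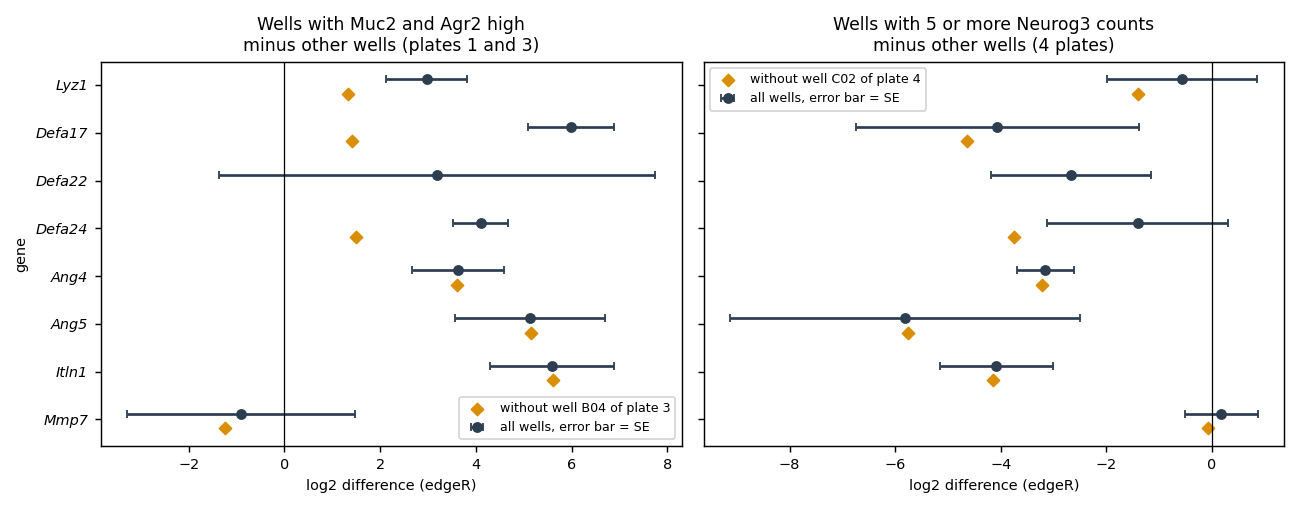
Log2 difference of each member (edgeR, error bars are the standard error) between goblet-high and other wells (left, plates 1 and 3) and between wells with 5 or more Neurog3 counts and the rest (right, 4 plates). Diamonds are values without well B04 of plate 3 (left) or C02 of plate 4 (right). On the left, Defa17 and Defa24 drop from 5.99 and 4.10 to 1.40 and 1.497, while Ang4, Ang5 and Itln1 stay at 3.61, 5.16 and 5.62. Well C11 of plate 3, which held most of the remaining goblet-high counts of Ang4, Ang5 and Itln1 there, was not left out. Defa22 was not tested without the well in either panel.

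Neurog3, the transcription factor gene that starts endocrine differentiation, had at least 5 counts in 50 wells (7, 12, 24 and 7). Of the 35 Paneth-high wells 5 were among them (14.3%, against 17.2% of all wells): 0, 2, 1 and 2 by plate. The 0 of 11 in plate 1 allows a share of up to 27.3%. The 5 wells were B04 and B11 of plate 2 (807 and 1053 Neurog3 counts), D12 of plate 3 (45), and C02 and G06 of plate 4 (94 and 51). In B04 and B11 of plate 2 the members were at moderate levels, with Lyz1 at 1603 and 386 CPM and Defa24 at 46.2 and 175 CPM. In D12 and C02 Defa24 was at 14986 and 49118 CPM, and Neurog3 at 143 and 116 CPM. Only 1 well, B11 of plate 2, was goblet-high and had 5 or more Neurog3 counts.

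Member by member, the share of high wells with 5 or more Neurog3 counts was 8 of 60 for Lyz1 (13.3%), and, for wells with any defensin high, 5 of 38 (13.2%). It was 11 of 80 (13.8%) for wells with an angiogenin or Itln1 high. These shares lie near the 17.2% of all wells. Of the 13 wells with Ang5 and Itln1 both high, 0 had 5 or more Neurog3 counts.

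In the test between the 50 Neurog3-positive wells and the rest, over the 4 plates, 0 of 8 members passed by edgeR, where 0.0241% of 12438 genes were called (0 higher, 3 lower), and 858 genes had an unadjusted p under 0.05. The 3 were the hormone genes Gcg, Ghrl (-5.95) and Cck (-4.77), and Gcg was at 0 in plate 1. DESeq2 called 797 genes (6.41%), with 4 members among them, all lower: Ang4 (adjusted p 4.38e-05), Itln1 (0.000259), Ang5 (0.0172) and Defa17 (0.0432).

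Ang4 was lower in Neurog3-positive wells of all 4 plates, at 43.3 against 844, 24.4 against 114, 67.2 against 1313 and 93.8 against 381 CPM. Its log2 difference was -3.15 ± 0.54 (adjusted p 0.398, edgeR). With wells thinned it passed by edgeR (-2.90, adjusted p 0.0202), where 0.0588% of genes were called. Without a filter on low counts it did not (adjusted p 0.690, edgeR), where 0.0103% were called. With Neurog3-positive set at 1 count it was at -1.09 (adjusted p 0.948, edgeR). Itln1 was lower in all 4 plates as well, at 203 against 3543, 81.5 against 89.4, 43.6 against 2563 and 0.955 against 50.6 CPM (-4.09 ± 1.07, adjusted p 0.398, edgeR). The small difference in plate 2 leans on well F10, which had fewer than 5 Neurog3 counts. That well held 2199 of the plate's 3379 Itln1 counts (65.1%), and the split was not run without it. The median log2 difference was -2.91 over the 8 members and -0.55 over all genes tested. Agr2 stood at -3.52 ± 0.73 (adjusted p 0.398, edgeR).

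The defensins and Lyz1 did not move one way. Defa24 was at 14.6 against 2757, 372 against 1096 and 954 against 2270 CPM in the duodenum plates, but at 9531 against 851 CPM in the jejunum plate. Lyz1 was at 50.8 against 1033, 193 against 326 and 463 against 762 CPM in the duodenum plates and at 7134 against 292 CPM in the jejunum plate. Well C02 held 39850 of the 39918 Defa24 counts and 29197 of the 29879 Lyz1 counts of the jejunum wells with Neurog3. Without that well the jejunum values were 20.1 against 851 CPM for Defa24 and 202 against 292 CPM for Lyz1. The log2 difference of Defa24 over the 4 plates was -1.41 ± 1.72 with the well (adjusted p 0.929, edgeR) and -3.76 without it. That of Lyz1 was -0.57 ± 1.43 (adjusted p 0.986, edgeR) and -1.41 without it. Plate 3 depended on a single well in the same way, but on the other side of the split. Without well B04, which had no Neurog3 count, plate 3 stood at 954 against 313 CPM for Defa24 and at 463 against 153 CPM for Lyz1, higher with Neurog3. The log2 differences over the 4 plates were then -0.17 for Defa24 and 0.42 for Lyz1, and that of Defa17 was -1.79.

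Defa17 (-4.07 ± 2.68, adjusted p 0.821), Defa22 (-2.66 ± 1.51, adjusted p 0.794) and Ang5 (-5.81 ± 3.31, adjusted p 0.795) were lower by edgeR without passing. Ang5 went against that in plate 2, at 74.5 against 2.14 CPM. Mmp7 was at 4.73 against 14.4, 61.9 against 68.0, 95.8 against 96.5 and 463 against 93.9 CPM, with a log2 difference of 0.18 ± 0.70 (adjusted p 0.996, edgeR) that was close to 0 beside its error.

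What the Paneth-high wells held besides the members was tested last among the well classes, on genes the rule had not used. By edgeR, 0.0819% of 12203 genes were called (10 genes: 2 higher, 0.0164%, and 8 lower, 0.0656%), and 1740 had an unadjusted p under 0.05. Spink4, which encodes a secreted peptidase inhibitor of goblet and Paneth cells, rose in all 4 plates: 20645 against 831, 5493 against 599, 5755 against 624 and 8584 against 406 CPM (log2 difference 4.30 ± 0.37, adjusted p 0.0198, edgeR). It lost the call when any 1 plate was left out, at differences from 3.97 to 4.52, and passed at 2 or more and at 4 or more members. Defa3, whose coding sequence equals that of Defa17, was the other gene called higher (adjusted p 0.0139, edgeR), at 67.0 against 0.051, 1.80 against 0, 190 against 0.101 and 48.7 against 0.025 CPM. Its reads cannot be told from those of Defa17, a gene that chose the wells, over the coding sequence, and it was not tested when well B04 of plate 3 was left out. It too lost the call when any 1 plate was left out.

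The 8 genes called lower were Tph1 (-6.20), Pappa2 (-6.87), Afp (-6.58), Vim (-5.91), Rab3c (-5.89), Lmx1a (-5.65), Lhx1 (-5.29) and the hormone gene Gip (-7.08), the last at 0 in plate 1. These calls depend on how many members define the class. At 2 or more members high, the first 7 were nearer to 0 and none passed by edgeR, with Tph1 at -2.07, Pappa2 at -1.82, Lmx1a at -1.97 and Rab3c at -1.59. At 4 or more, 6 of those 7 passed. Without duodenum replicate 2, or without the jejunum plate, none of the 7 passed by edgeR. In Paneth-high wells as defined, Tph1 was at 3.59 against 683, 6.07 against 551, 7.92 against 540 and 22.2 against 1979 CPM. Lmx1a encodes a transcription factor of enterochromaffin cells. Of the 35 wells, 0 had Tph1 high, which allows up to 8.57%, and 2 had Chgb high (5.71%, against 26.2% of all wells). By the rule, which measures against the plate's median, Chgb was high in 0 of the 63 wells of plate 4, so that wells F02 and G06 there were not counted although they held 25546 and 4280 Chgb counts. The 25 listed endocrine genes summed to 799, 2661, 3332 and 24430 CPM in Paneth-high wells, and to 43413, 67477, 37405 and 97367 CPM in the others. Single Paneth-high wells of plate 4 ran from 1421 to 126945 CPM for that sum, and the highest lay above the summed level of the plate's other wells. The listed tuft genes summed to at most 0.450 CPM and the non-epithelial genes to at most 15.5 CPM in Paneth-high wells of any plate. There 7 to 9 of 9 tuft genes and 8 to 10 of 13 non-epithelial genes were at 0. Their part in the results was not tested.

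Muc2 was higher in Paneth-high wells of every plate, at 266 against 10.3, 59.6 against 7.30, 154 against 9.28 and 133 against 0.394 CPM, but did not pass (log2 difference 5.26 ± 1.02, adjusted p 0.116, edgeR). Agr2 was higher in plates 1, 3 and 4 and lower in plate 2, at 32.6 against 112 CPM (4.22 ± 1.58, adjusted p 0.292, edgeR). DESeq2 called both, where it called 17.4% of 11729 genes. With wells thinned, Muc2 passed by edgeR (4.69, adjusted p 0.0309), where 0.196% of genes were called, and Agr2 was at 1.55. At 4 or more members high, Muc2 was at 2.04 and Agr2 at 0.62, and neither passed. Neurog3 was at 1.44 against 16.3, 419 against 142, 6.06 against 50.7 and 24.9 against 15.7 CPM (-0.58 ± 1.12, adjusted p 0.834, edgeR), higher in 2 plates and lower in 2. By list, 1 of 22 other Paneth genes and 1 of 20 goblet genes were called higher, with medians of 2.85 and 3.13 against -0.57 for all genes tested, and 3 of 23 endocrine genes were called lower (median -3.26). The other Paneth list includes near copies of the members, such as Defa30, 98.6% identical to Defa24. Reads of genes that chose the wells may thus be part of its median of 2.85. Of 20 genes for secretory control and the endoplasmic reticulum 0 were called, with 4 higher at an unadjusted p under 0.05 and a median of 0.38. Of 6 niche signal genes tested (Wnt, EGF family and Notch ligands that Paneth cells are known to make) 0 were called, and the median was -1.09. Of 10 stem cell genes 0 were called (median 0.10). The lists were chosen with earlier results of these data in view.

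The 29 alpha-defensin genes and pseudogenes in the table summed to 3257, 1069, 3069 and 2391 CPM in plates 1 to 4. Defa24 made up 75.7%, 93.3%, 62.6% and 68.3% of these counts, Defa30 3.64%, 3.57%, 18.5% and 20.7%, and Defa17 15.4%, 1.56%, 2.83% and 5.26%. Plate 1 held 1 count of Defa35 and 9 of Defa29, against 9386 and 5638 in plate 3, while Defa27 had 2733 counts in plate 1 and 16, 420 and 68 in the others. Single wells carried most of these counts. Well B04 held 99.5% of the Defa35, 98.7% of the Defa29 and 97.0% of the Defa30 counts of plate 3. Without it, Defa24 made up 94.5% and Defa30 3.46% of the plate's defensin counts, near their shares in plate 2. Without well C02, Defa30 made up 30.0% and Defa17 0.636% in plate 4. Defa5 had 0, 28, 121 and 1637 counts, and 99.1% of those in the jejunum plate lay in well F11. In plate 1 the highest well held 38.8% of the Defa17 and 55.5% of the Defa27 counts. Mouse, age and plate cannot be told apart here, and how reads of near-identical copies were counted is not stated. The gene for the secreted phospholipase Pla2g2a, another Paneth product, had counts in plate 1 (175 CPM, 6 wells high) and 0 counts in the other 3 plates.

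**Figure D5:**
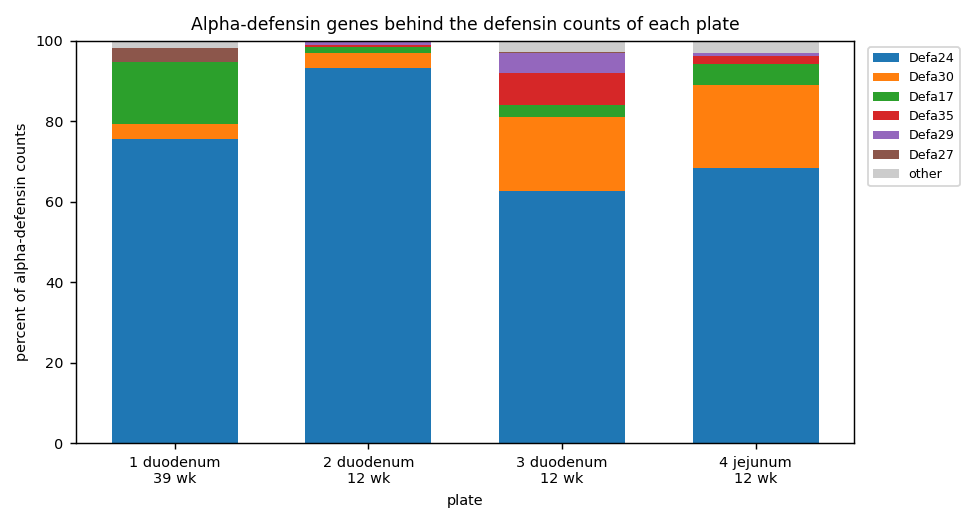
Percent of each plate's alpha-defensin counts by gene (6 genes with most counts, the rest in grey). Defa24 is the largest part in every plate (62.6% to 93.3%), Defa17 is largest in plate 1 (15.4%), and Defa30 is larger in plates 3 and 4 (18.5% and 20.7%) than in plates 1 and 2; in plate 3 this rests on well B04, without which Defa30 makes up 3.46%.

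The genes most like the members over wells were found by Pearson correlation with the summed level of the 8 genes (log2(CPM + 10), centred within plates, 290 wells, 12957 genes ranked). Outside the members these were Spink4 (r = 0.60), Defa30 (0.49), Clps (0.47), Tff3 (0.45), Fcgbp (0.44), Habp2 (0.42), Guca2a (0.41), Muc2 (0.39), Gm15292 and Spint2 (0.38 each), Tmed6, Guca2b and Defa3 (0.37 each), Tspan8 (0.36) and Agr2 (0.34). Defa30 and Defa3 may share reads with Defa24 and Defa17, which are part of the sum. Spink4 was alike in each plate (0.61, 0.55, 0.59 and 0.70). Agr2 was not (0.57, 0.08, 0.56 and -0.13), and neither was Muc2 in plate 4 (0.14). Among the members, Defa24 (0.66) and Lyz1 (0.65) were nearest to the sum of which they are part, and Defa22 ranked 97th by gene (0.25).

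Between tissues, sums over all wells of a plate were compared, 1 jejunum against 3 duodenum plates. In such sums, fewer cells with a gene and less RNA per cell cannot be told apart. By edgeR 0 of 8 members passed, with 0.0% of 19329 genes called, 819 genes at an unadjusted p under 0.05, and 720 called by DESeq2 (4.04%). Itln1 had the largest difference, at 46.2 CPM in jejunum and 3188, 88.3 and 1897 CPM in duodenum (-5.21 ± 1.94, adjusted p 0.934, edgeR), and was the only member DESeq2 called (adjusted p 0.00243). Adjusted p-values for Itln1 over the alternatives ran from 0.00243 to 1.00. Lyz1 (0.52 ± 0.64), Defa24 (-0.13 ± 0.65), Defa17 (-0.62 ± 1.44), Ang4 (-0.81 ± 1.102) and Mmp7 (1.06 ± 0.93) had differences near or under their errors. Without well C02 the differences were -1.16 for Lyz1, -4.53 for Defa17 and -1.18 for Defa24. Tissue, mouse and plate cannot be told apart.

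Between ages, the 39-week duodenum plate was compared with the pair of 12-week duodenum plates. Again 0 of 8 members passed by edgeR, with 0.0% of 18480 genes called and 1412 at an unadjusted p under 0.05, while DESeq2 called 920. Defa17 was at 503 CPM at 39 weeks and at 16.6 and 86.8 CPM at 12 weeks (3.08 ± 0.95, adjusted p 0.626, edgeR). Ang5 was at 64.4 against 11.9 and 4.40 CPM (2.86 ± 0.76, adjusted p 0.592, edgeR), and Mmp7 at 13.4 against 67.2 and 96.3 CPM (-2.77 ± 0.62, adjusted p 0.574, edgeR). DESeq2 called all 3 (adjusted p 0.00168, 0.0247 and 0.00158), where it called 6.49% of 14180 genes. By edgeR, Defa17 passed with wells thinned (adjusted p 0.0476) and without a filter on low counts (0.00468), and Mmp7 passed without a filter (0.0458). Genes called were 0.15% with wells thinned and 0.819% without a filter. Without well B04 of plate 3 the differences were 5.44 for Defa17, 1.62 for Lyz1 and 1.60 for Defa24. Lyz1 (0.73 ± 0.63), Defa24 (0.58 ± 0.62), Itln1 (1.47 ± 1.48) and Ang4 (0.28 ± 1.22) had differences near or under their errors. Age, mouse and plate cannot be told apart.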

How the data were processed

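Single sorted cells on 4 plates were profiled by polyadenylated RNA sequencing. What the authors deposited is a single table of integer counts (genes by wells), restricted to wells that passed a filter whose rule is not given in the sources used here. Tools named in the submitters' processing notes are bcl2fastq 2.17.1.14, cutadapt 1.10, Bowtie2 2.2.8, STAR 2.5.3a, UMI-tools 0.4.4, HTSeq 0.6.1 with the build mm10, without their roles. Whether molecular indices collapsed copies is not stated in the sources used here. As values reached 643177, a count may be a PCR copy rather than a molecule, and intervals cover counting error only. Columns were tied to samples by the number after "exp", which matches the pool number in the titles; 0 columns were left over. Symbols were paired for 29120 of 29161 genes.

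A gene was high in a well at 5 or more counts, 0.5% or more of its plate's counts and 10 or more times its plate's median CPM. Each class was summed within its plate, wherever both classes had 3 or more wells, and the sums were tested with edgeR 4.0.16 (quasi-likelihood test, TMM, filterByExpr, plate as a block, Benjamini-Hochberg, threshold 0.05; R 4.3.3). Standard errors are the log2 difference over the root of the F statistic. Plates were the replicates, never wells. Genes that set a class were not tested. Alternatives were DESeq2 1.42.0, RLE size factors, no filter, no block, other class limits, thinning to 100000 counts (seed 1), leaving out plates, and, chosen after seeing the data, leaving out well B04 of plate 3 or C02 of plate 4. Cells were sorted 1 to a well, and no doublet caller was run. Whether some wells held more than 1 cell was not tested. The fitting script was tested on simulated data. Sequences are from GENCODE M21 and RefSeq GRCm38.p6, compared with Biopython 1.88.

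The members, lists and tests were chosen with earlier results of these data known. Named genes are the members, Muc2, Agr2 and Neurog3, up to 10 called genes per direction that changed alike in every plate, list genes that passed, and the 15 genes most correlated with the members.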

Additional observations from a re-analysis of the deposited data

Results flagged for a closer look

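In the split by Neurog3, 4 members lay above 0 in the jejunum plate and below 0 in all 3 duodenum plates. As the log2 ratio of (CPM + 1) in wells with 5 or more Neurog3 counts over the other wells, Lyz1 was at 4.604 in jejunum and at -4.32, -0.75 and -0.72 in duodenum replicates 1 to 3. Defa17 was at 7.06 in jejunum and at -8.30, -2.97 and -4.58 in duodenum. Defa24 was at 3.48 in jejunum and at -7.47, -1.55 and -1.25 in duodenum. Mmp7 was at 2.29 in jejunum and at -1.43, -0.13 and -0.01 in duodenum, so it hardly moved in duodenum replicates 2 and 3. The difference between the tissues was not tested, since 1 plate stands for jejunum. Without well C02, 1 of the 7 Neurog3-positive jejunum wells, the jejunum ratios were -0.53 for Lyz1, -1.68 for Defa17 and -5.33 for Defa24, below 0 as in the duodenum plates, and 1.37 for Mmp7. Well C02 held 94 counts of Neurog3. Without well B04 of plate 3, duodenum replicate 3 also lay above 0 for Lyz1 (1.59), Defa24 (1.61) and Mmp7 (0.18).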

How the results depend on the processing

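The count of called genes moved with the method in most comparisons. For goblet-high wells (23 genes) it was 372 with DESeq2, 48 without a filter on low counts, 0 without the replicate block, 70 with wells thinned and 8 without well B04 of plate 3. For Neurog3-positive wells (3) it was 797 with DESeq2, 0 without the replicate block, 0 at a limit of 1 count, 6 with wells thinned, and 0 to 3 with each plate left out in turn. For Paneth-high wells (10) it was 2046 with DESeq2, 28 without a filter, 23 without the replicate block, 3 at 2 or more members, 35 at 4 or more, 20 with wells thinned, and 0 to 7 with a plate left out: 3 without duodenum replicate 1, 0 without duodenum replicate 2, 7 without duodenum replicate 3 and 0 without jejunum replicate 1. Between tissues (0) it was 720 with DESeq2, 9 without a filter, and 0 to 10 with a plate left out. Between ages (0) it was 920 with DESeq2, 226 without a filter and 23 with wells thinned. The number of wells with 3 or more members high (35) was 132 at 5 counts only, 74 at 2 or more members and 21 at 4 or more. The cause of these changes was not tested. With RLE size factors no count moved by over 1.5 times, and the median of all genes went from -1.12 to -0.965 in the goblet split.

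Of the values of single genes under alternatives, 516 kept their direction and side of the threshold, 91 no longer passed, 27 newly passed and 25 turned direction. The 516 include the goblet split without well C02 of plate 4. That split used plates 1 and 3 only, so its values could not change there and say nothing on stability. Without the replicate block, Mmp7 stood at 2.1665 in the goblet split, Lyz1, Defa17 and Defa24 at 1.85, 1.07 and 0.79 in the Neurog3 split, and Neurog3 at 1.39 in Paneth-high wells; Defa17 and Defa24 no longer passed in the goblet split. With wells thinned, Mmp7 was at 0.0878 in the goblet split, Defa24 at 0.14 between tissues and Agr2 at 0.41 between ages. At 1 Neurog3 count, Lyz1, Defa17 and Defa24 were at 0.78, 1.76 and 1.53. With each plate left out in turn, Lyz1 ran from -1.82 to 0.67 and Mmp7 from -0.58 to 0.75 in the Neurog3 split, Neurog3 from -1.68 to 0.30 in Paneth-high wells, and Defa17 from -1.18 to 1.19, Defa24 from -0.43 to 0.0888 and Ang5 from -1.98 to 0.16 between tissues. Duodenum replicate 1 gave the turned values of Lyz1, Defa17, Defa24 and Ang5, jejunum replicate 1 that of Mmp7, and duodenum replicates 1 and 3 those of Neurog3. Agr2 between ages was at 0.0559 with DESeq2 and at 0.0559 with RLE size factors. Without well B04, Lyz1 was at 0.42 in the Neurog3 split, Defa24 at 0.36 between tissues and Defa22 at 2.40 between ages; without well C02, Mmp7 was at -0.0644 in the Neurog3 split and Lyz1 at -1.16 between tissues.

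No paired analysis was possible because duodenum and jejunum share only 1 replicate number, beyond the plate block within splits. Not run were the goblet split at 5 wells per class and without duodenum replicate 1 or 3, which left 1 plate, and leaving out plates between ages, which left no residual degrees of freedom. With 11 goblet-high wells, and 1 plate per tissue or age on 1 side, differences under the spread between plates were not detectable.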
